A study of Mus musculus with 18 samples.

Results

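The 39 genes described here encode noncollagenous structural parts of the extracellular matrix: fibronectin and other matrix glycoproteins, small leucine-rich and large proteoglycans, elastic fibre and microfibril proteins, and the laminins, nidogens and perlecan of basement membranes. They were taken by gene symbol from a fixed list, and all 39 were among the 54752 genes of the table. The series asked how chemically induced liver cirrhosis, and daily oral Pien Tze Huang (PTH, a traditional Chinese medicine, not parathyroid hormone), changed liver RNA in male C57BL/6 mice that were 6 weeks old at purchase. Each of the 3 groups held 6 mice with 1 library of ribosome-depleted total liver RNA each. All mice had intraperitoneal injections of 10 µl/g, given 2 times weekly over 12 weeks. Control mice received corn oil and, by mouth each day, double distilled water. Cirrhosis mice received 10% carbon tetrachloride (CCl4), a solvent toxic to hepatocytes, in corn oil, with the same water. Cirrhosis-PTH mice received the same CCl4 together with PTH by mouth each day, 0.25 mg per g from a 50 mg/ml solution. No group received corn oil together with PTH, so effects of PTH without CCl4 were not measured.

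In a healthy liver the matrix is sparse. Fibronectin comes largely from hepatocytes, a thin basement membrane-like matrix lines the sinusoids, and elastic fibres and small proteoglycans are found mainly in portal tracts and vessel walls. In cirrhosis, activated stellate cells and portal fibroblasts deposit fibrous septa in which fibrillin microfibrils, elastin and matricellular glycoproteins accumulate. Microfibrils also hold latent transforming growth factor beta (TGF-beta), through the latent TGF-beta binding proteins.

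Libraries held from 62.5 to 112.3 M counts, of which 24.5 to 67.5 M lay outside 7 loci that collect ribosomal RNA reads. The 7 were Gm42418, Gm26917, CT010467.1, AY036118, Lars2 and the mitochondrial ribosomal RNA genes mt-Rnr1 and mt-Rnr2, so the share is not of cytosolic ribosomal RNA alone. The share at those loci was 48.0 ± 7.26% for Control, 38.8 ± 1.68% for Cirrhosis and 41.2 ± 6.40% for Cirrhosis-PTH libraries (SD, n = 6). Levels are given in CPM, the count divided by the scaled library size in M counts. The summed level of 10 hepatocyte markers was 54784 to 70988 CPM in Control, 35748 to 58325 CPM in Cirrhosis and 53797 to 59982 CPM in Cirrhosis-PTH. In bulk tissue, fewer cells of a type and less RNA per cell cannot be told apart. "Passed" means an adjusted p under 0.05 in edgeR's quasi-likelihood test, with adjustment over all 21914 genes tested, and "rose" and "fell" are used for such genes only. Of the 39 genes, 38 were expressed enough to be tested. The exception was Mfap5, a microfibril-associated glycoprotein, which had 0 counts in all 18 libraries, and 3 counts in a library would have been 0.0233 to 0.0831 CPM.

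CCl4 raised most of these genes and PTH-treated livers had lower levels of many of them. Between Cirrhosis and Control, 33 of the 38 genes rose, 1 fell and 4 did not pass. Their median log2 change was 1.75, beside 0.02 over all genes tested. Of all genes tested, 50.5% passed, 25.5% higher and 25% lower. Of the 38 genes, 29 were at least 2-fold higher, beside 14.2% of all genes. Between Cirrhosis-PTH and Cirrhosis, 18 fell, 1 rose and 19 did not pass, with a median of -0.65 beside -0.003 over all genes. Of all genes, 38.6% passed there, 18.6% lower and 20.1% higher. Of the 38 genes, 11 were at least 2-fold lower, beside 1558 of the 21914 genes tested. None was at least 2-fold higher, which 38 genes are too few to set apart from the 5.33% of all genes. Between Cirrhosis-PTH and Control, 26 were higher, 1 was lower and 11 did not pass, with a median of 0.94 beside 0.006 over all genes, of which 8.82% passed, 6.34% higher and 2.48% lower. There 14 were at least 2-fold higher, beside 3.41% of all genes. The 6 libraries of 1 group lay entirely above those of the other for 31 of the genes and below for 1 in Cirrhosis against Control, beside 15.6% and 14.7% of all genes (30.3% in either direction). In Cirrhosis-PTH against Cirrhosis they lay entirely below for 13 and above for 0, beside 11% and 11.8% (22.8%). In Cirrhosis-PTH against Control they lay entirely above for 12 and below for 1, beside 3.07% and 1.4% (4.47%). These comparisons share libraries and are given side by side, not as support for each other.

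**Figure D1:**
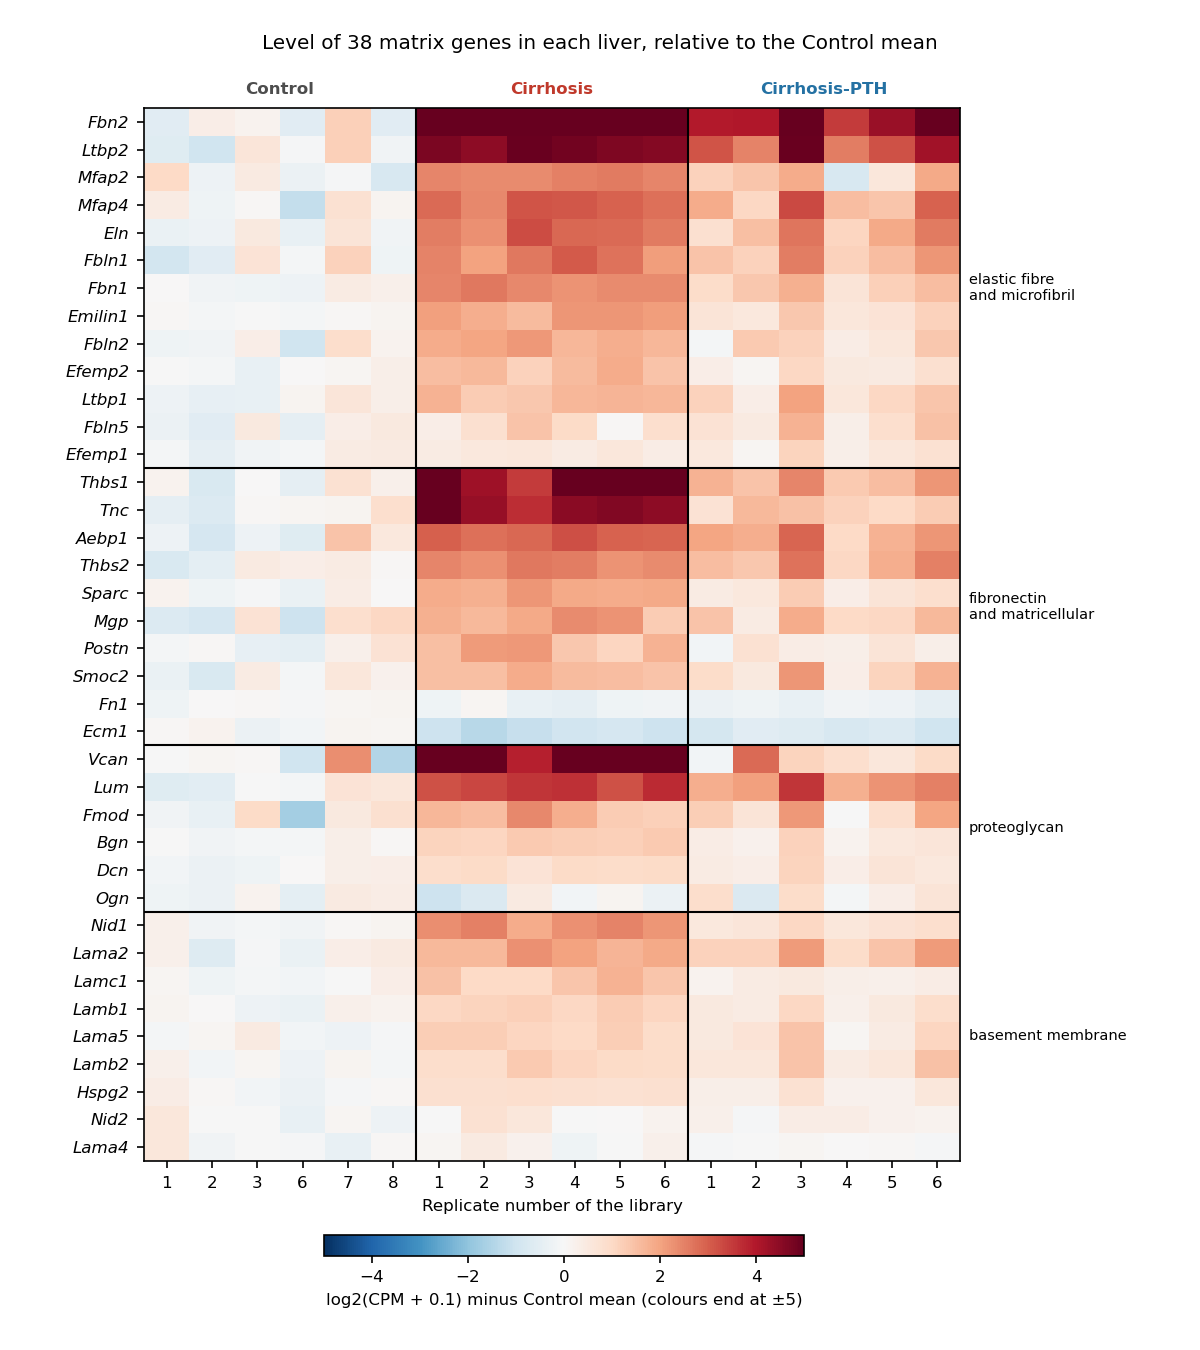
Level of the 38 tested matrix genes in each of the 18 libraries, as log2(CPM + 0.1) minus the Control mean, with rows grouped by role and the replicate number of each library on the x axis. Cirrhosis columns are red for most rows, Cirrhosis-PTH columns are paler, and within Cirrhosis-PTH the columns of replicates 3 and 6 are the darkest in many rows.

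By role, all 13 tested elastic fibre and microfibril genes rose in Cirrhosis, with a median log2 change of 2.41, although the calls of Fbln5 and Efemp1 depended on single libraries. Among fibronectin and the matricellular glycoproteins 8 of 10 rose and 1 fell (median 1.86), among proteoglycans 5 of 6 rose (median 1.38), and among basement membrane genes 7 of 9 rose (median 1.11). Over all genes tested 25.5% rose and 25% fell. In Cirrhosis-PTH against Cirrhosis, 6 of 13, 5 of 10, 3 of 6 and 4 of 9 fell in the same order, beside 18.6% of all genes. Among these, Eln and Aebp1 lost their call in 7 and 11 omissions of a single library. Whether these role groups differed from each other was not tested.

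**Figure D2:**
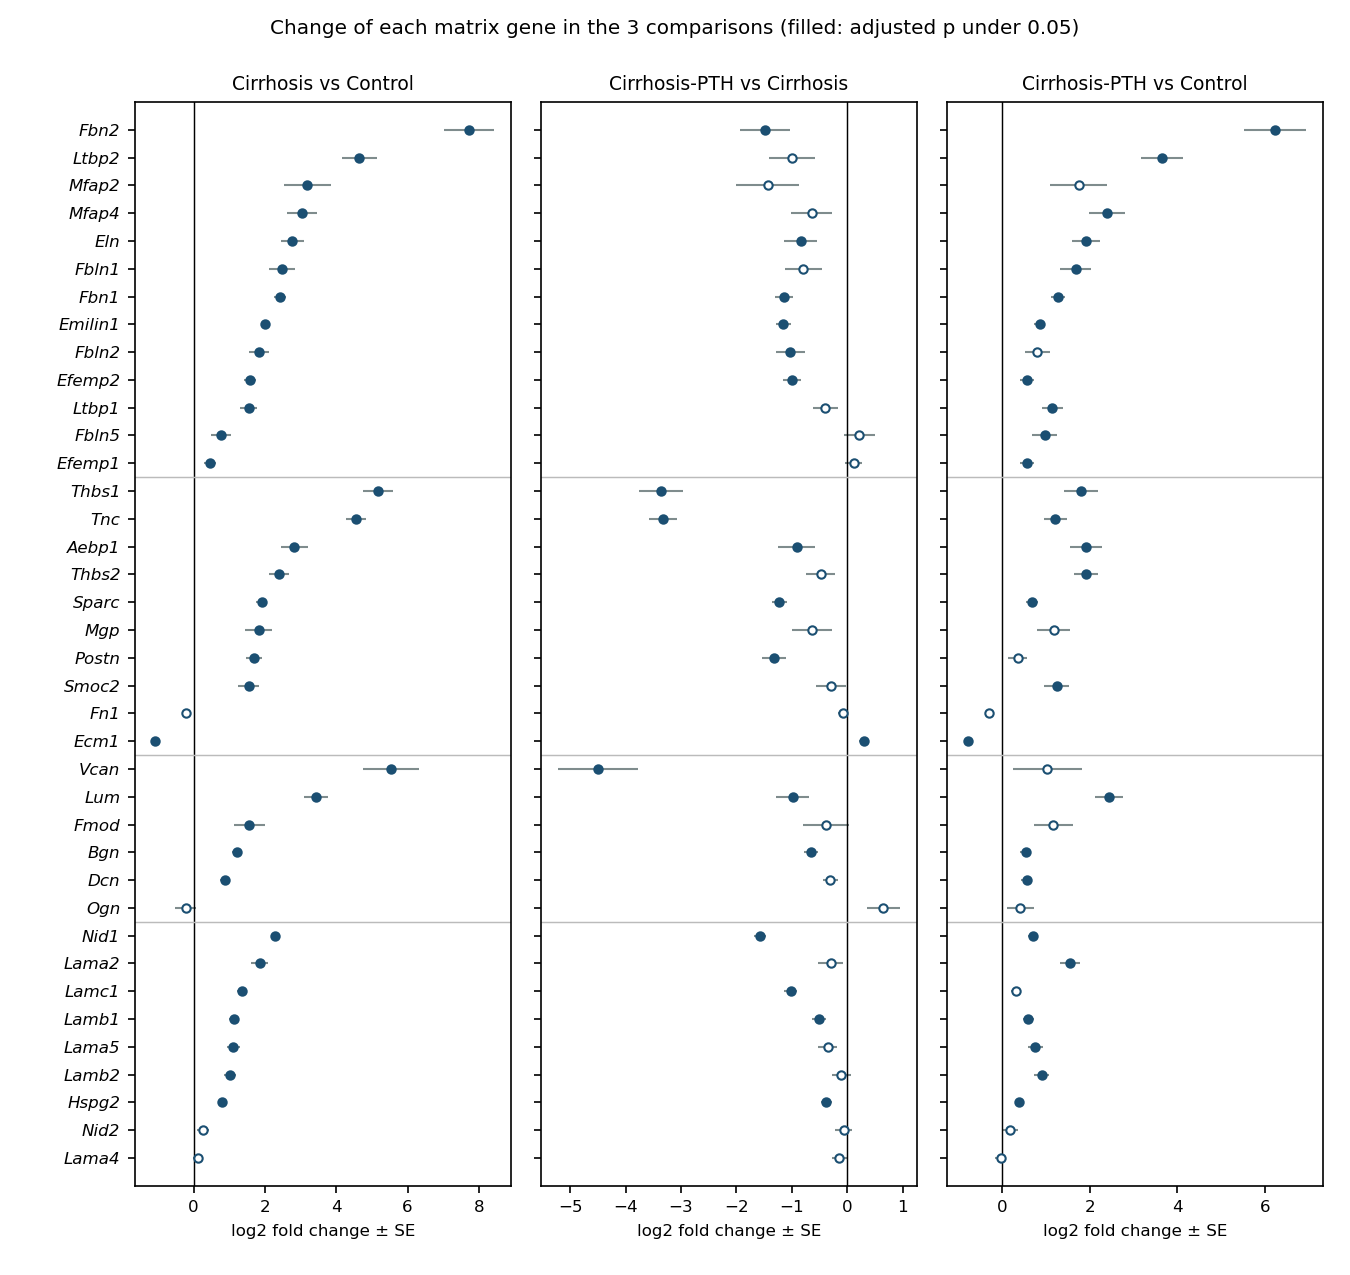
Log2 fold change of each tested matrix gene with its standard error in the 3 comparisons, in the row order of the heat map, filled where the adjusted p was under 0.05. The left panel lies mostly right of 0, with Ecm1 at -1.07, the middle panel lies mostly left of 0, with Vcan at -4.50, and the right panel again lies mostly right of 0.

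Sequence upstream of 5 of these genes is given because they carry the contrasts described below. Efemp2, Tnc, Vcan and Nid1 had, in their role groups, the smallest p in Cirrhosis-PTH against Cirrhosis among genes with a RefSeq promoter entry in which at least 150 bases precede any annotated exon, and Ecm1 is the gene that fell in Cirrhosis. Efemp2 and Tnc each had 2 such entries with different starts, of which the first is shown and used for positions. Sequences are from RefSeq, build GRCm38.p6, written 5′ to 3′ on the strand of the gene, and begin 250 bases before the RefSeq start. Capitals mark motifs found on either strand: the AP-1 motif TGANTCA, the TEAD motif GGAATG, the TATA box TATAAA and the GC box GGGCGG. They lie at chr19:5473696-5473945 (plus strand) for Efemp2, chr4:64047016-64047265 (minus strand) for Tnc, chr13:89742513-89742762 (minus strand) for Vcan, chr13:13437352-13437550 (plus strand, 199 bases) for Nid1 and chr3:95739570-95739819 (minus strand) for Ecm1.
Efemp2: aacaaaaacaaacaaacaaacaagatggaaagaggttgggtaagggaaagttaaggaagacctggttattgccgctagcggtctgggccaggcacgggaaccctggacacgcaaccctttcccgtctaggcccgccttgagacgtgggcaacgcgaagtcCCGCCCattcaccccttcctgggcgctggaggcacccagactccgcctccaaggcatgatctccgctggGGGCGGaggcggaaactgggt
Tnc: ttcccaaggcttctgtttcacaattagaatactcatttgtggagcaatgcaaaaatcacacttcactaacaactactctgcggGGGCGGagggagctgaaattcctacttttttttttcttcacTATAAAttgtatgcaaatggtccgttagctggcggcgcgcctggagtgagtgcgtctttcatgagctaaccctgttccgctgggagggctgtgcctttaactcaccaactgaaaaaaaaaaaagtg
Vcan: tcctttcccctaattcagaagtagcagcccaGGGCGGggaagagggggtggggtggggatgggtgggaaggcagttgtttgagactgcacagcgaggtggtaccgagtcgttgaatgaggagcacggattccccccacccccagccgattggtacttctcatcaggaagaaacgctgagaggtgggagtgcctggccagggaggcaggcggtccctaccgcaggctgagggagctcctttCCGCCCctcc
Nid1: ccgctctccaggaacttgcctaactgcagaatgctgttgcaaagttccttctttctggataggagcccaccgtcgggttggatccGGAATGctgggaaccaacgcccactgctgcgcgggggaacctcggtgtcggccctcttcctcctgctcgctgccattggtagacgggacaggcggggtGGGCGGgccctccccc
Ecm1: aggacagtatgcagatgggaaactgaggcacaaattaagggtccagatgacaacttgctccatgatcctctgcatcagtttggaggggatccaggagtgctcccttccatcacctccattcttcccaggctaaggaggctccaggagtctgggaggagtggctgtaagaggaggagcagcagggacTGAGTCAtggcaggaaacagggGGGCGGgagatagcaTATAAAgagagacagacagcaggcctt

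Ecm1 held an AP-1 motif at positions -64 to -58 and a TATA box at -27 to -22 relative to the RefSeq start. In Tnc the TATA box lay at -126 to -121 (-205 to -200 from the start of the second entry), and Nid1 held a TEAD motif at -165 to -160. A GC box was present in all 5 windows. RefSeq had 34 promoter entries for 26 of the 39 genes. In the 250 bases before the start, a GC box was found in 55.9% of those entries, beside 32.7% of all 32851 promoters. For the AP-1 motif the shares were 5.88% and 6.75%, for the TEAD motif 8.82% and 12.6%, for the TATA box 17.6% and 12.4%, for the CCAAT box CCAAT 20.6% and 33.8%, and for the E-box CANNTG 64.7% and 66.2%. The AP-1 motif was in Ecm1 and Efemp1 and the TEAD motif in Mfap2, Nid1 and Ogn. These motifs can overlap one another, and a match is a description of letters and not of binding.

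Elastic fibres are built on fibrillin microfibrils, onto which elastin is laid. Fbn1, the main fibrillin of adult tissue (GRCm38 chromosome 2, 125300594 to 125507993), had a median of 7.56 CPM in Control (6.64 to 10.6), 42.6 CPM in Cirrhosis (38.4 to 51.0) and 19.5 CPM in Cirrhosis-PTH (12.7 to 27.5). The 3 groups did not overlap. Fbn1 rose by 2.41 ± 0.16 on the log2 scale in Cirrhosis (SE, adjusted p = 6.64e-10), and was lower in Cirrhosis-PTH than in Cirrhosis by a log2 difference of -1.14 ± 0.16 (adjusted p = 7.7e-06) but higher than in Control by 1.27 ± 0.16 (adjusted p = 5.29e-05). Gm9913 on the opposite strand overlaps 20.1% of the Fbn1 exonic bases, and whether the counting used strand is not given in the sources used here. Fbn2, a fibrillin best known from developing tissue, was close to absent in Control, with a median of 0.0338 CPM (0 to 0.242). It had a median of 12.6 CPM in Cirrhosis (10.4 to 14.1) and 2.56 CPM in Cirrhosis-PTH (1.57 to 9.92), with no overlap between any of the groups. The log2 change was 7.71 ± 0.71 in Cirrhosis (8.60 without Control replicate 7), -1.49 ± 0.45 from Cirrhosis to Cirrhosis-PTH (adjusted p = 0.0147) and 6.23 ± 0.70 from Control to Cirrhosis-PTH (7.12 without Control replicate 7).

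Emilin1, an elastin interface protein that restrains TGF-beta processing (chromosome 5, 30913402 to 30921277), had a median of 14.2 CPM in Control (12.9 to 15.3), 59.2 CPM in Cirrhosis (42.5 to 65.7) and 22.5 CPM in Cirrhosis-PTH (20.4 to 36.0). Efemp2, fibulin-4, needed for elastin crosslinking (chromosome 19, 5473954 to 5482517), had medians of 2.15 CPM (1.64 to 2.66), 6.46 CPM (4.89 to 7.89) and 2.98 CPM (2.26 to 4.50) in the same order. For both genes all Cirrhosis livers lay above all others, while Efemp2 in Cirrhosis-PTH overlapped Control. Emilin1 changed by 2.01 ± 0.14 in Cirrhosis (adjusted p = 4.16e-10) and by -1.15 ± 0.13 from there to Cirrhosis-PTH (adjusted p = 7.52e-07). Efemp2 changed by 1.57 ± 0.16 (adjusted p = 7.24e-08) and -0.99 ± 0.16 (adjusted p = 3.14e-05). Against Control, Cirrhosis-PTH remained higher by 0.86 ± 0.13 for Emilin1 and by 0.58 ± 0.16 for Efemp2 (adjusted p = 0.0272). The Efemp2 call was lost in 8 alternatives (adjusted p from 0.0551 to 0.143), among them limma voom, thinned counts and leaving out Control replicate 2 or 3 or Cirrhosis-PTH replicate 3 or 6.

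Eln, elastin itself, had a median of 1.81 CPM in Control (1.63 to 3.37), 14.5 CPM in Cirrhosis (10.8 to 21.1) and 7.23 CPM in Cirrhosis-PTH (3.73 to 14.2). It rose by 2.77 ± 0.33, and the Cirrhosis-PTH value was lower than Cirrhosis by -0.84 ± 0.30 (adjusted p = 0.0347) with overlap between the groups. This call was lost with no filter and without any 1 of Cirrhosis replicates 3, 4 and 5 and Cirrhosis-PTH replicates 1, 2, 4 and 5 (adjusted p from 0.0594 to 0.0803). Ltbp2, a microfibril protein of the latent TGF-beta binding protein family that does not itself bind latent TGF-beta, had a median of 1.18 CPM in Control (0.595 to 3.06) and 35.5 CPM in Cirrhosis (30.8 to 42.0). In Cirrhosis-PTH it ran from 7.69 to 42.5 CPM around a median of 12.4, so that replicate 3 was above all Cirrhosis livers. Ltbp2 rose by 4.64 ± 0.49 in Cirrhosis, and its difference of -0.99 ± 0.41 from Cirrhosis to Cirrhosis-PTH did not pass (adjusted p = 0.068). It passed in 5 alternatives, DESeq2, limma voom, thinned counts, the replicate block and without replicate 3 (-1.03 to -1.45, adjusted p from 0.00321 to 0.0494). Ltbp1, which does anchor latent TGF-beta, rose less (1.55 ± 0.24), with -0.39 ± 0.23 between the CCl4 groups (adjusted p = 0.202).

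Of the other elastic fibre genes, Mfap2 and Mfap4, microfibril-associated proteins, and Fbln1 and Fbln2, fibulins of elastic fibres and basement membranes, rose by 1.83 to 3.19 in Cirrhosis. The value for Mfap2 rests on few reads, with a median count of 3.5 per Control library, and was 3.82 without Control replicate 1. Only Fbln2 of these 4 also fell from Cirrhosis to Cirrhosis-PTH (-1.02 ± 0.27, adjusted p = 0.00434). Mfap2 gave -1.44 ± 0.57 there without passing (adjusted p = 0.0528), although its 2 groups did not overlap, and passed in 11 alternatives (adjusted p from 0.00529 to 0.047). Fbln1 gave -0.79 ± 0.33 (adjusted p = 0.0668) and passed as lower in 8 alternatives, among them DESeq2, limma voom and the replicate block (adjusted p from 0.0121 to 0.048). Mfap4 gave -0.64 ± 0.37 (adjusted p = 0.192) and passed with limma voom and without Cirrhosis-PTH replicate 3 (adjusted p = 0.0298 and 0.0271). Fbln5 and Efemp1 (fibulin-3), short fibulins, had the smallest rises of the elastic fibre group, 0.76 ± 0.28 and 0.46 ± 0.16, and differences of 0.22 and 0.12 between the CCl4 groups that did not pass. The Fbln5 rise was lost without any 1 of Control replicates 1, 2 and 6 and Cirrhosis replicates 3 and 4 (adjusted p from 0.0562 to 0.0861), and the Efemp1 rise without Control replicate 2 (adjusted p = 0.0535). In Cirrhosis-PTH against Control both were higher, by 0.98 and 0.58, and each lost that call in 7 alternatives, 5 of them single-library omissions.

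Fibronectin and the matricellular glycoproteins modulate how cells attach to and signal through the matrix. Fn1, fibronectin (chromosome 1, 71585520 to 71653200), was by far the most abundant of the 39 genes per kb of exon, with means of 186 ± 15.8 CPM per kb for Control, 160 ± 21.7 for Cirrhosis and 152 ± 11.1 for Cirrhosis-PTH livers (SD, n = 6). Its median level was 2235 CPM in Control (1857 to 2357), 1863 CPM in Cirrhosis (1586 to 2311) and 1809 CPM in Cirrhosis-PTH (1574 to 1903). All 3 groups overlapped, and no difference passed: -0.22 ± 0.09 in Cirrhosis (adjusted p = 0.0599) and -0.29 ± 0.09 in Cirrhosis-PTH against Control (adjusted p = 0.0565). Both lay near the threshold: Fn1 passed as lower in Cirrhosis with upper quartile scaling, with limma voom and without Control replicate 1 or Cirrhosis replicate 2 (adjusted p from 0.0102 to 0.0453). It passed as lower in Cirrhosis-PTH against Control with DESeq2, limma voom, the 12 libraries of those groups and the same omissions (adjusted p from 0.016 to 0.0393). Fn1 took 79.1 to 84.1% of the summed CPM of the 39 genes in Control libraries, 54.0 to 65.3% in Cirrhosis and 61.0 to 76.8% in Cirrhosis-PTH. Without Fn1 that sum was 418 to 542 CPM in Control, 1218 to 1392 CPM in Cirrhosis and 575 to 1076 CPM in Cirrhosis-PTH.

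Ecm1, extracellular matrix protein 1, known to keep latent TGF-beta inactive in the liver (chromosome 3, 95734147 to 95739569), was the 1 gene that fell in Cirrhosis. Its median was 59.3 CPM in Control (46.2 to 62.8), 27.5 CPM in Cirrhosis (21.4 to 31.0) and 33.6 CPM in Cirrhosis-PTH (28.3 to 38.3). Every CCl4-treated liver lay below every Control liver, and the CCl4 groups overlapped each other. Ecm1 fell by 1.07 on the log2 scale in Cirrhosis (SE 0.09, adjusted p = 8.89e-09). In Cirrhosis-PTH it was higher than in Cirrhosis by 0.31 ± 0.09 (adjusted p = 0.0123) and lower than in Control by a log2 difference of -0.76 ± 0.09 (adjusted p = 3.32e-05). Of 10 hepatocyte markers, 8 fell in Cirrhosis, beside 25% of all genes. From Cirrhosis to Cirrhosis-PTH 7 rose and 1 fell, beside 20.1% and 18.6%. In Cirrhosis-PTH against Control 1 was lower, beside 2.48%, and 9 did not pass. Ecm1 is also on the list of 12 stellate cell markers, of which 7 rose and 2, Ecm1 among them, fell in Cirrhosis, beside 25.5% and 25%. The part of either cell type in the Ecm1 values was not tested.

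Tnc, tenascin-C, a glycoprotein of wounds and remodelling tissue (chromosome 4, 63959785 to 64047015), had a median of 1.99 CPM in Control (1.15 to 3.41), 44.4 CPM in Cirrhosis (25.6 to 70.5) and 4.45 CPM in Cirrhosis-PTH (3.13 to 6.03). Cirrhosis lay far above both other groups, and Cirrhosis-PTH overlapped Control. Tnc rose by 4.55 ± 0.28 (adjusted p = 5.93e-10), was lower in Cirrhosis-PTH than in Cirrhosis by a log2 difference of -3.33 ± 0.26 (adjusted p = 2.45e-08), and remained above Control by 1.22 ± 0.26 (adjusted p = 0.0055, and 0.0532 with limma voom). Thbs1, thrombospondin-1, an activator of latent TGF-beta, had a median of 2.75 CPM in Control (1.46 to 4.45), 105 CPM in Cirrhosis (29.8 to 154) and 8.20 CPM in Cirrhosis-PTH (6.51 to 14.3), with no overlap. Its log2 changes were 5.17 ± 0.43, -3.36 ± 0.39 and, for Cirrhosis-PTH against Control, 1.81 ± 0.39 (adjusted p = 0.00768, and 0.111 with limma voom).

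Thbs2, thrombospondin-2 (chromosome 17, 14665500 to 14694235), moved otherwise. It had a median of 4.26 CPM in Control (2.14 to 5.06), 19.9 CPM in Cirrhosis (17.8 to 23.6) and 12.0 CPM in Cirrhosis-PTH (7.70 to 25.1), where replicate 3 was above all Cirrhosis livers. The rise of 2.40 ± 0.28 passed, the difference of -0.48 ± 0.26 between the CCl4 groups did not (adjusted p = 0.174), and Cirrhosis-PTH was above Control by 1.92 ± 0.28 (adjusted p = 0.000325). The difference between the CCl4 groups passed in 3 alternatives, limma voom, the replicate block and without Cirrhosis-PTH replicate 3 (-0.57 to -0.70, adjusted p from 0.0265 to 0.0469). Sparc, osteonectin, a collagen-binding glycoprotein (chromosome 11, 55394500 to 55423183), had a median of 31.4 CPM in Control (24.96 to 40.6), 115.5 CPM in Cirrhosis (109 to 146) and 47.3 CPM in Cirrhosis-PTH (39.7 to 75.7). It rose by 1.91 ± 0.14 (adjusted p = 1.99e-09), and Cirrhosis-PTH was lower than Cirrhosis by -1.22 ± 0.14 (adjusted p = 9.14e-07) and higher than Control by 0.68 ± 0.14 (adjusted p = 0.00391), and only Cirrhosis-PTH and Control overlapped.

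Aebp1, a collagen-binding carboxypeptidase-like protein, rose by 2.82 ± 0.37 and fell from Cirrhosis to Cirrhosis-PTH (-0.91 ± 0.34, adjusted p = 0.0421). That fall lost its call with no filter and without any 1 of the Cirrhosis libraries or of the Cirrhosis-PTH libraries other than replicate 3 (adjusted p from 0.0526 to 0.0841). Postn, periostin, rose by 1.68 ± 0.22, fell between the CCl4 groups (-1.33 ± 0.22) and gave 0.36 ± 0.22 against Control in Cirrhosis-PTH, which did not pass. Mgp, the calcification inhibitor matrix Gla protein, and Smoc2, a calcium-binding relative of Sparc, rose by 1.82 ± 0.38 and 1.54 ± 0.29, with -0.64 and -0.29 between the CCl4 groups, which did not pass.

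**Figure D3:**
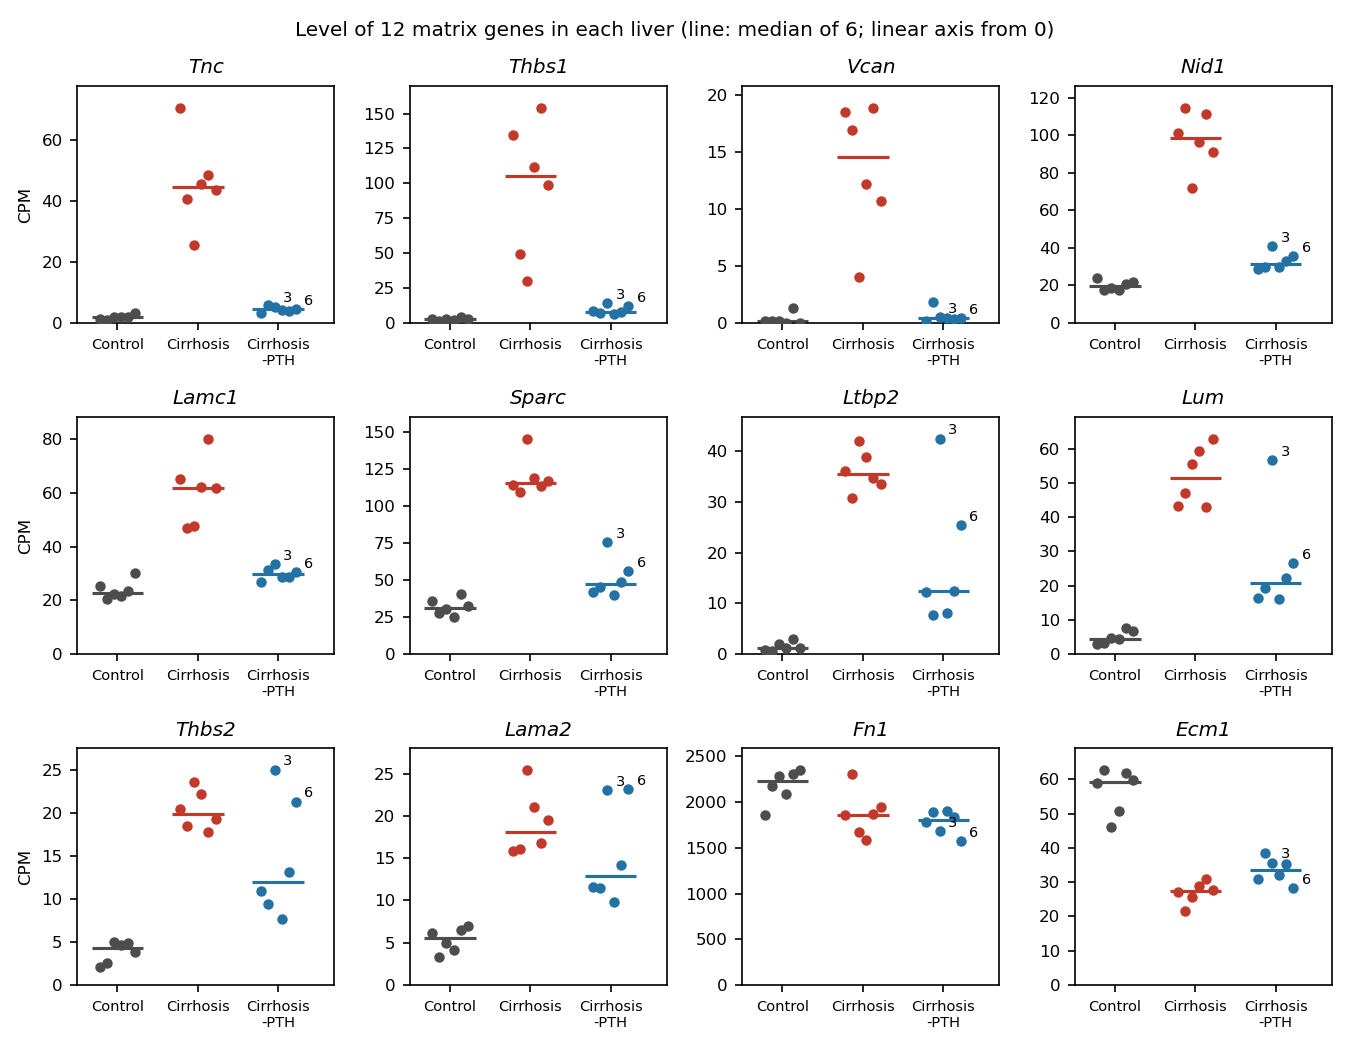
CPM of 12 matrix genes in each liver on linear axes from 0, with a line at each group's median and Cirrhosis-PTH replicates 3 and 6 numbered. In Cirrhosis-PTH, Tnc, Thbs1, Vcan, Nid1 and Lamc1 lie nearer to Control than to Cirrhosis, whereas for Ltbp2, Lum, Thbs2 and Lama2 replicate 3 reaches the Cirrhosis range.

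The proteoglycans include the small leucine-rich proteoglycans, which bind and space collagen fibrils, and versican, a large hyaluronan-binding proteoglycan of provisional matrix. Vcan, versican (chromosome 13, 89655312 to 89742509), had a median of 0.179 CPM in Control (0 to 1.3), 14.5 CPM in Cirrhosis (4.01 to 18.9) and 0.419 CPM in Cirrhosis-PTH (0.154 to 1.84). No Cirrhosis liver overlapped the others, and Cirrhosis-PTH overlapped Control. Vcan rose by 5.54 ± 0.79 (6.78 without Control replicate 7) and was lower in Cirrhosis-PTH than in Cirrhosis by a log2 difference of -4.50 ± 0.72 (adjusted p = 9.43e-05, and -5.21 without Cirrhosis-PTH replicate 2). Against Control, Cirrhosis-PTH gave 1.03 ± 0.79, which did not pass (adjusted p = 0.48), with 2.28 without Control replicate 7 and 0.33 without Cirrhosis-PTH replicate 2.

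Lum, lumican (chromosome 10, 97565128 to 97572703), had a median of 4.45 CPM in Control (3.0 to 7.51), 51.3 CPM in Cirrhosis (42.9 to 62.9) and 20.7 CPM in Cirrhosis-PTH (16.02 to 56.6). The Cirrhosis-PTH livers lay above all Control livers, and replicate 3 alone reached the Cirrhosis range. Lum rose by 3.42 ± 0.33 (adjusted p = 2.59e-07), fell between the CCl4 groups (-0.98 ± 0.30, adjusted p = 0.0156) and stayed above Control in Cirrhosis-PTH by 2.44 ± 0.32 (adjusted p = 0.000186). Dcn, decorin, which binds TGF-beta (chromosome 10, 97479609 to 97518143), had a median of 88.9 CPM in Control (76.3 to 119), 176.5 CPM in Cirrhosis (149.7 to 182) and 128.6 CPM in Cirrhosis-PTH (116 to 201). It rose by 0.87 ± 0.13 (adjusted p = 9.48e-06) and was above Control in Cirrhosis-PTH by 0.57 ± 0.13 (adjusted p = 0.0074). Between the CCl4 groups Dcn gave -0.30 ± 0.13 (adjusted p = 0.0691), which passed in 6 alternatives, among them DESeq2, limma voom and without Cirrhosis-PTH replicate 3 (-0.33 to -0.44, adjusted p from 0.00294 to 0.0414).

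Bgn, biglycan, also a ligand of innate immune receptors (chromosome X, 73483602 to 73495933), had a median of 53.7 CPM in Control (49.1 to 67.8), 129 CPM in Cirrhosis (116 to 136) and 75.6 CPM in Cirrhosis-PTH (63.0 to 125). It rose by 1.20 ± 0.13 (adjusted p = 1.49e-07) and fell between the CCl4 groups (-0.65 ± 0.13, adjusted p = 0.000326), where again replicate 3 was the 1 liver inside the Cirrhosis range. Fmod, fibromodulin, rose by 1.56 ± 0.44 and did not pass in the other comparisons. Ogn, osteoglycin or mimecan (chromosome 13, 49608046 to 49624501), passed in none. Its median was 1.29 CPM in Control (0.882 to 1.83), 1.11 CPM in Cirrhosis (0.574 to 1.82) and 1.87 CPM in Cirrhosis-PTH (0.752 to 2.54), with overlap throughout. Between the CCl4 groups it gave 0.65 ± 0.30 (adjusted p = 0.0932), and passed as higher without Cirrhosis replicate 3 or Cirrhosis-PTH replicate 2 (adjusted p = 0.0335 and 0.0289).

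Basement membranes are sheets of laminin trimers, each of an alpha, a beta and a gamma chain, tied to collagen IV by nidogens and perlecan. Nid1, nidogen-1 (chromosome 13, 13437551 to 13512269), had a median of 19.7 CPM in Control (17.4 to 24.0), 98.7 CPM in Cirrhosis (71.98 to 115) and 31.4 CPM in Cirrhosis-PTH (28.5 to 40.8), and the 3 groups did not overlap. It rose by 2.29 ± 0.12 (adjusted p = 9.67e-12), was lower in Cirrhosis-PTH than in Cirrhosis by a log2 difference of -1.57 ± 0.11 (adjusted p = 2.54e-09) and remained above Control by 0.72 ± 0.11 (adjusted p = 0.000302). By p, Nid1 ranked 11 of all 21914 genes in Cirrhosis against Control and 42 in Cirrhosis-PTH against Cirrhosis. Nid2, nidogen-2 (chromosome 14, 19751265 to 19811787), passed in no comparison: its medians were 6.03 CPM (4.75 to 9.20), 6.61 CPM (6.07 to 10.6) and 7.19 CPM (5.82 to 8.02) in Control, Cirrhosis and Cirrhosis-PTH, and the log2 change in Cirrhosis was 0.26 ± 0.16 (adjusted p = 0.189, and 0.40 with adjusted p = 0.031 without Control replicate 1).

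Among laminin chains, Lamc1, the gamma 1 chain shared by most laminins (chromosome 1, 153218922 to 153332786), had a median of 22.9 CPM in Control (20.5 to 30.3), 61.99 CPM in Cirrhosis (47.0 to 80.3) and 29.7 CPM in Cirrhosis-PTH (26.95 to 33.6). It rose by 1.34 ± 0.12 (adjusted p = 7.27e-09), fell between the CCl4 groups (-1.02 ± 0.11, adjusted p = 5.13e-07) and gave 0.32 ± 0.11 in Cirrhosis-PTH against Control (adjusted p = 0.0832), which passed in 4 alternatives, the 12 libraries of those groups and without Control replicates 7 and 8, Control replicate 8 or Cirrhosis replicate 5. Lamb1, the beta 1 chain (chromosome 12, 31265234 to 31329644), had a median of 11.52 CPM in Control (8.55 to 13.0), 23.6 CPM in Cirrhosis (22.3 to 26.4) and 15.2 CPM in Cirrhosis-PTH (12.9 to 22.3). It rose by 1.12 ± 0.12 (adjusted p = 1.96e-07), fell by 0.51 between the CCl4 groups (SE 0.12, adjusted p = 0.00197) and was above Control in Cirrhosis-PTH by 0.61 ± 0.12. The lowest Cirrhosis and the highest Cirrhosis-PTH liver nearly coincided for Lamb1.

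The alpha chains differed. Lama2, the alpha 2 chain of mesenchymal basement membranes (chromosome 10, 26980036 to 27619758), had a median of 5.56 CPM in Control (3.29 to 7.01), 18.1 CPM in Cirrhosis (15.9 to 25.5) and 12.9 CPM in Cirrhosis-PTH (9.85 to 23.2). All CCl4-treated livers lay above Control, and Cirrhosis-PTH replicates 3 and 6 lay within Cirrhosis. Lama2 rose by 1.85 ± 0.24 and was above Control in Cirrhosis-PTH by 1.55 ± 0.24 (adjusted p = 0.000389), with -0.30 ± 0.23 between the CCl4 groups (adjusted p = 0.336). Lama4, the alpha 4 chain of vessel walls (chromosome 10, 38965515 to 39110188), passed nowhere, with medians of 8.43 CPM (6.74 to 13.1), 9.75 CPM (7.60 to 11.9) and 8.75 CPM (8.39 to 9.35). Lama5 and Lamb2, the alpha 5 and beta 2 chains, rose by 1.11 ± 0.17 and 1.01 ± 0.17 and did not pass between the CCl4 groups (-0.35 and -0.10). Hspg2, perlecan, rose by 0.78 ± 0.10 and fell between the CCl4 groups (-0.38 ± 0.10, adjusted p = 0.00401).

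Ratios of 2 related genes within the same library do not depend on how libraries are scaled. For 18 such pairs, the log2 ratio of counts (0.5 added) was compared between groups by exact permutation of library labels, two-sided. The smallest p this can give is 0.0022 (exact permutation), and p-values were adjusted over 54 tests. The ratio differed for 13 pairs in Cirrhosis against Control, 11 in Cirrhosis-PTH against Cirrhosis and 8 in Cirrhosis-PTH against Control. Of all genes, 50.5%, 38.6% and 8.82% passed singly in these comparisons. No pairs of unrelated genes were compared, so whether ratios of related genes differ more or less often was not tested. Some close relatives changed unequally. Fbn2 gained on Fbn1 by 6.20 in Cirrhosis (exact permutation adjusted p = 0.0053) and by 5.55 in Cirrhosis-PTH against Control (exact permutation adjusted p = 0.0053), while the difference of -0.65 between the CCl4 groups did not pass (-0.85, exact permutation adjusted p = 0.0438, without Cirrhosis-PTH replicate 3). With a median count of 2 for Fbn2 in Control, the size depends on the added count: with 2 added to each count the gains were 5.06 and 4.41. Ltbp2 gained on Ltbp1 by 3.23 in Cirrhosis and by 2.44 in Cirrhosis-PTH against Control, and Lum gained on its chromosomal neighbour Dcn by 2.59 and 1.79, each of which passed.

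For other pairs the ratio in Cirrhosis-PTH was near that of Control. Thbs2 against Thbs1 changed by -2.57 in Cirrhosis and by 2.61 from there to Cirrhosis-PTH, and differed by 0.04 from Control (exact permutation adjusted p = 0.87). Efemp2 against Efemp1 changed by 1.08 and -1.10, with -0.02 against Control (exact permutation adjusted p = 0.87). Bgn against Dcn changed by 0.32 and -0.36, with -0.04 against Control (exact permutation adjusted p = 0.62). Lamc1 against Hspg2 changed by 0.53 and -0.60, with -0.07 against Control (exact permutation adjusted p = 0.61). A p that misses the threshold does not show equal ratios. Nid2 against Nid1 changed by -2.02 and 1.53 and still differed from Control by -0.49 (exact permutation adjusted p = 0.016), and Tnc against Fn1 changed by 4.76 and -3.23 and still differed by 1.53 (exact permutation adjusted p = 0.0053). Lama4 lost against Lama5 by -0.99 in Cirrhosis and by -0.70 in Cirrhosis-PTH, both against Control. The latter (exact permutation adjusted p = 0.029) was lost without any 1 of Control replicates 1, 6 and 8 and Cirrhosis-PTH replicates 3 and 6 (exact permutation adjusted p from 0.0568 to 0.0673).

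**Figure D4:**
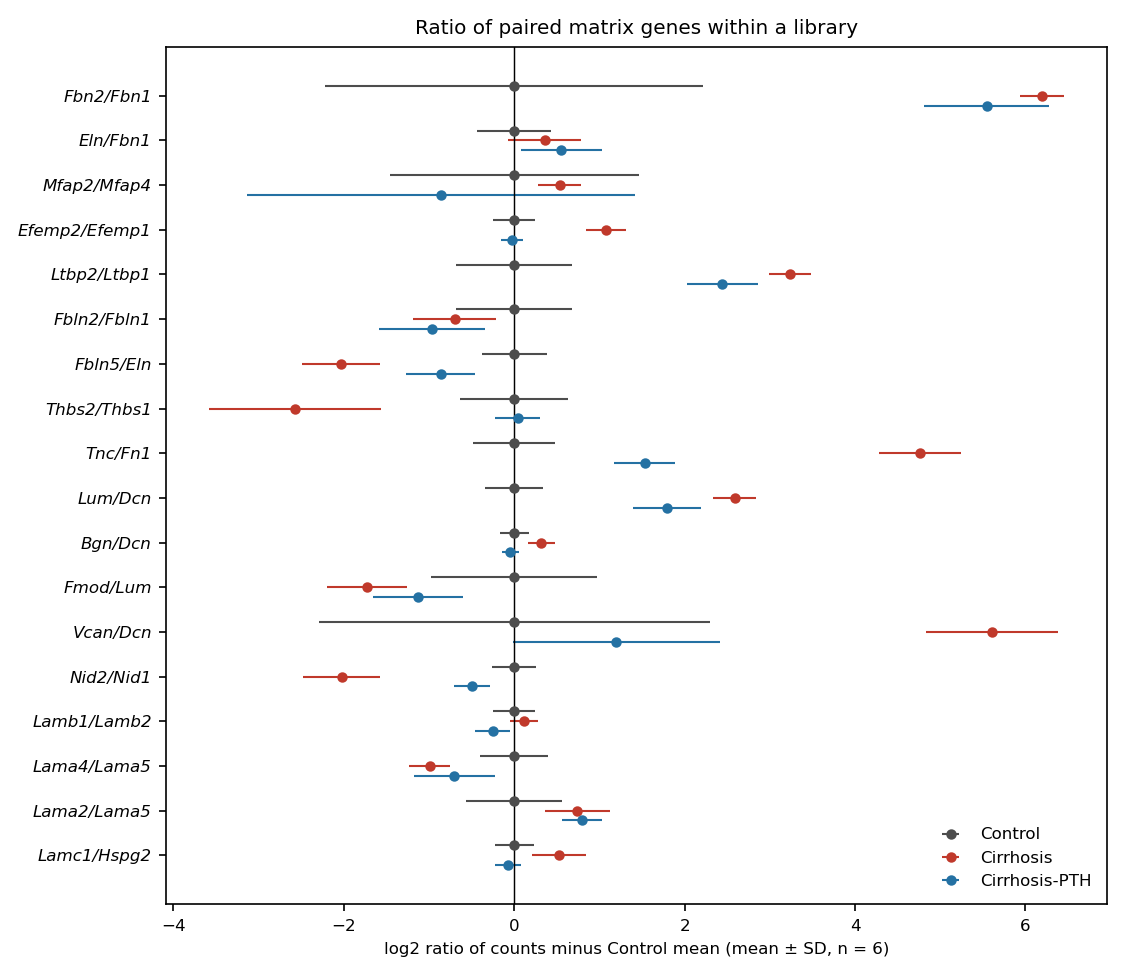
Mean ± SD over 6 libraries of the log2 count ratio of 18 gene pairs in each group, relative to the Control mean at 0. Cirrhosis-PTH lies by Control for Efemp2/Efemp1 (-0.02), Thbs2/Thbs1 (0.04) and Bgn/Dcn (-0.04), and away from Control for Fbn2/Fbn1 (5.55), Ltbp2/Ltbp1 (2.44) and Lum/Dcn (1.79).

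The Cirrhosis-PTH livers differed among themselves in these genes more than the Cirrhosis livers did. The median coefficient of variation of the 38 genes was 35.6% in Cirrhosis-PTH, 14.5% in Cirrhosis and 29.3% in Control, beside 21.0%, 20.5% and 24.1% over all genes tested. Cirrhosis-PTH replicate 3 was the highest of its group for 28 of 38 genes (73.7%), beside 21.4% of all genes, and replicates 3 and 6 were the 2 highest for 27 of 38 genes (71.1%), beside 13.3% of all genes. In Control, replicates 7 and 8 were the 2 highest for 16 of 38 genes (42.1%), beside 10.8% of all genes. These 2 libraries had the largest shares at the ribosomal RNA loci in Control (50.9% and 60.8%) and the fewest counts elsewhere. Their summed hepatocyte markers were the lowest in Control (59964 and 54784 CPM). Whether this bears on the order was not tested. No groups were formed from these orders. Without Cirrhosis-PTH replicate 3, the number of genes lower than in Cirrhosis went from 18 to 26, beside 4068 and 4111 over all genes. All 18 kept their call, and Dcn, Thbs2, Fbln1, Lama5, Mfap2, Mfap4, Ltbp1 and Ltbp2 were added. Leaving out the liver that was highest for most of these genes lowers their group means by construction. The added calls are therefore no separate evidence of a fall. Against Control, 23 in place of 26 were then higher, without Fbln5, Efemp1 and Efemp2, beside 944 in place of 1389 over all genes.

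Summed levels of marker genes of other cell types were read in the same libraries. The summed level of 10 portal fibroblast markers was 14.6 to 29.5 CPM in Control, with replicate 7 highest, and 92.6 to 111 CPM in Cirrhosis. In Cirrhosis-PTH it was 122 CPM in replicate 3, 93.3 CPM in replicate 6 and 43.5 to 58.0 CPM in the other 4. Of these 10 markers 9 rose in Cirrhosis, 3 fell from Cirrhosis to Cirrhosis-PTH and 7 were above Control in Cirrhosis-PTH, beside 25.5%, 18.6% and 6.34% of all genes. The summed level of 10 mesothelial markers was 2.43 to 13.8 CPM in Control, 6.94 to 30.2 CPM in Cirrhosis and 15.5 to 81.4 CPM in Cirrhosis-PTH, with replicate 3 highest. Of these, 2 rose in Cirrhosis, 4 rose from Cirrhosis to Cirrhosis-PTH, and 8 were above Control in Cirrhosis-PTH. The shares of all genes were 25.5%, 20.1% and 6.34%.

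The 8 myofibroblast and smooth muscle markers summed to 7.83 to 14.8 CPM in Control, 28.7 to 33.2 CPM in Cirrhosis and 9.12 to 18.0 CPM in Cirrhosis-PTH, and 11 stellate cell markers (without Ecm1) to 234 to 279, 369 to 429 and 246 to 375.5 CPM. The 10 cholangiocyte markers summed to 46.5 to 75.6 CPM in Control, 118 to 237 CPM in Cirrhosis and 54.5 to 127 CPM in Cirrhosis-PTH, where replicates 3 (127 CPM) and 6 (97.1 CPM) were again the highest. Of these markers 7 rose and 1 fell in Cirrhosis, beside 25.5% and 25% of all genes. From Cirrhosis to Cirrhosis-PTH 3 fell, and 2 were above Control in Cirrhosis-PTH, beside 18.6% and 6.34%. The 10 capillary and venous endothelial markers summed to 72.7 to 99.8, 115 to 149 and 89.0 to 97.7 CPM. The 10 macrophage markers summed to 168 to 274 CPM in Control, 416 to 689 CPM in Cirrhosis and 232 to 308 CPM in Cirrhosis-PTH. They did not all move alike: 7 rose and 2 fell in Cirrhosis (log2 -1.48 to 6.11), beside 25.5% and 25% of all genes. In Cirrhosis-PTH 6 were lower than in Cirrhosis, and 4 were above and 1 below Control, beside 18.6%, 6.34% and 2.48%. The 10 sinusoidal endothelial markers summed to 324 to 354, 336 to 399 and 333 to 365 CPM. Of these, 2 rose and 2 fell in Cirrhosis, beside the same 25.5% and 25%. No marker of these lists was at 0 in a whole group. The part of these cell types in the values of the matrix genes was not tested.

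**Figure D5:**
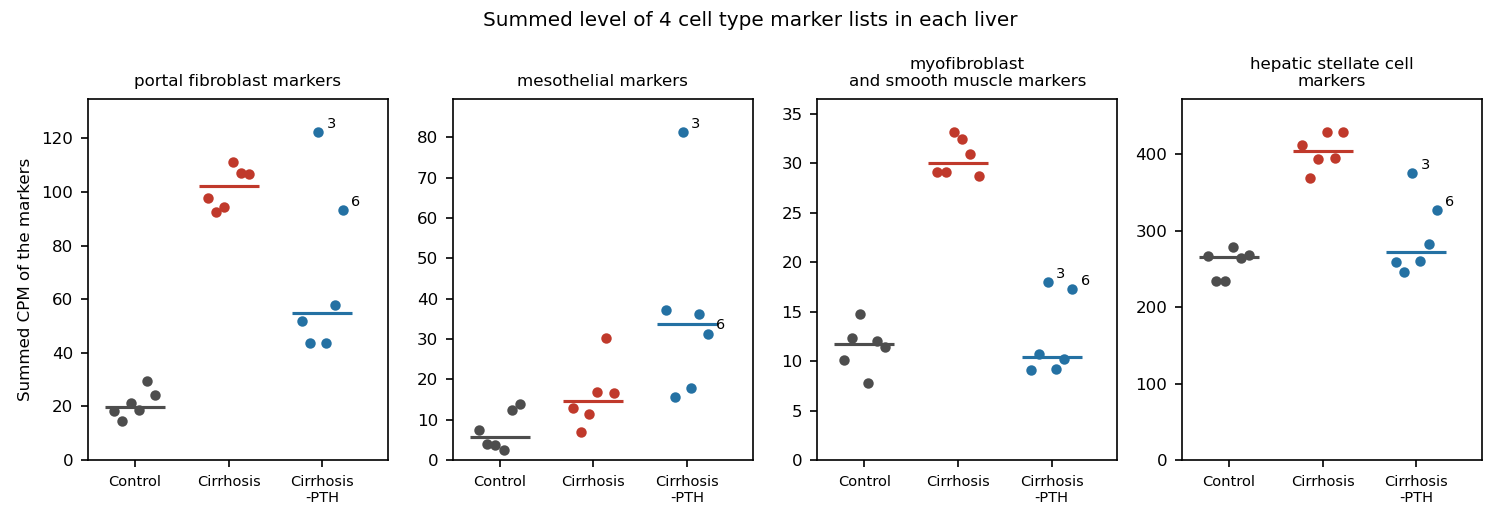
Summed CPM of the markers of 4 cell types in each liver, with a line at each group's median and Cirrhosis-PTH replicates 3 and 6 numbered. Replicate 3 is the highest Cirrhosis-PTH liver in all 4 panels, at 122 CPM for portal fibroblast and 81.4 CPM for mesothelial markers, and the myofibroblast panel shows all Cirrhosis-PTH livers below all Cirrhosis livers.

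Other genes of the same pathways were counted from lists. Beside all these counts, 25.5% of all genes rose and 25% fell in Cirrhosis, and 18.6% fell and 20.1% rose from Cirrhosis to Cirrhosis-PTH. Of 34 tested further matrix glycoprotein genes, 20 rose and 3 fell in Cirrhosis, and 14 fell and 2 rose from Cirrhosis to Cirrhosis-PTH. Sparcl1, a relative of Sparc, rose from 5.27 ± 1.34 to 42.9 ± 7.25 CPM (SD, n = 6, log2 3.03 ± 0.23). Mfge8, a bridge to integrins, changed by 2.04 ± 0.17 and -1.33 ± 0.16. Ctgf, connective tissue growth factor, a matricellular target of TGF-beta, rose by 1.84 ± 0.17, and its relative Wisp1 fell from 11.9 ± 6.09 CPM in Cirrhosis to 1.43 ± 0.26 CPM in Cirrhosis-PTH (log2 -3.06 ± 0.32). Of 19 laminin and basement membrane genes outside the 39, 8 rose and 3 fell in Cirrhosis, and 4 rose and 2 fell from there to Cirrhosis-PTH (4 close to and 2 below the shares of all genes). Lama3, an alpha chain of epithelial laminins, went down in Cirrhosis and up again (6.48 ± 1.67, 1.82 ± 0.70 and 5.72 ± 0.99 CPM in Control, Cirrhosis and Cirrhosis-PTH, log2 -1.84 ± 0.21 and 1.66 ± 0.21), and Fras1, an epithelial basement membrane protein, fell by 1.11 in Cirrhosis. Pxdn, the peroxidase that crosslinks collagen IV, rose by 0.67 ± 0.09, and Hmcn2, hemicentin-2, rose by 1.24 ± 0.32 from Cirrhosis to Cirrhosis-PTH.

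Of 11 tested further proteoglycan genes, 4 rose in Cirrhosis, and 3 fell and 2 rose from there to Cirrhosis-PTH, in a list too short to set apart from the 25.5%, 18.6% and 20.1% of all genes. Srgn, serglycin of leukocyte granules, changed by 2.06 ± 0.17 and -1.59 ± 0.16, and Prelp rose by 0.68 ± 0.12. Nyx, nyctalopin, had no counts in Control, 0.225 to 1.31 CPM in Cirrhosis and 0 to 0.0538 CPM in Cirrhosis-PTH. Of 27 receptor genes for matrix proteins, 20 rose and 4 fell in Cirrhosis, and 14 fell and 4 rose from there to Cirrhosis-PTH. Ddr1, a collagen receptor kinase, rose by 3.46 ± 0.26, Itga6, a laminin-binding integrin chain, by 2.13 ± 0.18 and Itgav, an integrin chain that binds fibronectin and latent TGF-beta, by 1.19 ± 0.10. Between the CCl4 groups Itgav changed by -0.98 ± 0.10 and Cd44, the hyaluronan receptor, by -2.08 ± 0.20. Of 37 tested genes that make the glycosaminoglycan chains of proteoglycans, 21 rose and 6 fell in Cirrhosis, and 19 fell and 6 rose from there to Cirrhosis-PTH. Xylt1, which starts the chains, changed by 3.15 ± 0.23 and -1.71 ± 0.21, Chst11, a chondroitin sulfotransferase, rose by 5.55 ± 0.51, Chsy3, a chondroitin synthase, fell by 1.39 between the CCl4 groups, and Ndst1, a heparan sulfate sulfotransferase, fell by 0.56 in Cirrhosis.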

How the data were processed

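The authors deposited 1 table of unscaled counts, with a row per gene and a column per library. Per the submitters' processing notes, the build was GRCm38 and cutadapt 4.2, Trim Galore, Bowtie2, Bowtie 1.3.1, StringTie 2.1.5 and HISAT2 2.2.1 were used, in an order not given. The annotation release and the strandedness of counting are not given in the sources used here. All 18 libraries entered 1 fit in edgeR 4.0.16 (R 4.3.3), with genes kept by filterByExpr, TMM scaling, a robust fit, two-sided quasi-likelihood tests and Benjamini-Hochberg adjustment over 21914 genes. The SE of a log2 change was derived from the F statistic. The script was tested on simulated data. Pair ratios and the share of ribosomal RNA loci were compared with exact permutation tests, computed over all arrangements in Python 3.11.15 with numpy 2.4.6. Each library is 1 mouse, so p-values measure the spread between mice. Coordinates and exonic lengths are from GENCODE mouse release M21 on GRCm38. Alternatives were other scalings, no filter, DESeq2 1.42.0, limma voom 3.58.1, fits of 2 groups, thinned counts, omission of the ribosomal RNA loci, a replicate block, omission of each library and of Control replicates 7 and 8 together, and, for ratios, 0 or 2 added to counts.

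The members and lists were chosen with earlier results of these data known. Genes described in full are, in each role group, the 3 with the smallest p in Cirrhosis against Control, the 2 with the smallest p in each of the other comparisons, and those that did not rise. Eln, Ltbp2 and Thbs1 were added after their values were seen. From each pathway list the 3 and the 2 with the smallest p in the first and second comparison are named.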

Additional observations from a re-analysis of the deposited data

Results flagged for a closer look

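In each group of 6 livers, the gap between the highest or lowest value and its neighbour was set against the whole range of the group. For 9 of 114 gene and group combinations it exceeded the 95% critical value of Dixon's test, and chance flags about 1 in 20 groups. In Cirrhosis-PTH, replicate 3 stood apart for Lum (56.6 CPM, with the next liver at 26.6), Dcn (201 CPM, next 146.5) and Bgn (125 CPM, next 85.3), and replicate 2 for Vcan (1.84 CPM, next 0.506). In Control, replicate 7 stood apart for Vcan (1.3 CPM, next 0.193) and Fbn2 (0.242 CPM, next 0.0893), and replicate 1 for Lama4 (13.1 CPM, next 9.09). In Cirrhosis, replicate 3 stood apart for Sparc (146 CPM, next 119) and Smoc2 (14.2 CPM, next 11.7).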

How the results depend on the processing

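Under the alternatives in tool, scaling, filter, libraries per fit and block, 33 genes rose in Cirrhosis, 16 to 25 fell from Cirrhosis to Cirrhosis-PTH and 23 to 29 were above Control in Cirrhosis-PTH. Over all genes these counts were 4936 to 6131, 3797 to 4666 and 992 to 1879. Leaving out 1 library at a time gave 31 to 33, 16 to 26 and 23 to 28 of the 38 genes, beside 5264 to 6065, 3688 to 4162 and 944 to 1521 of all genes. In those fits 1 to 2 were lower in Cirrhosis, 1 to 2 higher from Cirrhosis to Cirrhosis-PTH and 1 to 2 lower in Cirrhosis-PTH against Control. Over all genes these counts were 4862 to 5489, 3840 to 4481 and 334 to 611. With upper quartile scaling and with limma voom 2 members (Ecm1 and Fn1) were lower in Cirrhosis, and with DESeq2, limma voom and the 12 libraries of the 2 groups the same 2 were lower in Cirrhosis-PTH against Control, where DESeq2 called 841 of all genes lower. The replicate numbers do not pair the samples: deviations of same-numbered libraries correlated at -0.064 to 0.051. With a replicate block 33 rose and 1 fell in Cirrhosis, beside 4936 and 4590 of all genes. Between the CCl4 groups 21 fell, beside 3977 of all genes. In Cirrhosis-PTH 27 were above Control, beside 1109 of all genes, and 245 of all genes were lower in that comparison. Control replicates 7 and 8 add nothing under the block, since no other group has their numbers. Of 2052 member changes with 1 library left out, 38 lost and 30 gained their call and 4 changed sign, and of 1140 under the other alternatives 13 lost, 41 gained and 1 changed sign. The changes of sign were in values that had not passed: Ogn in Cirrhosis (0.0676 without Control replicates 7 and 8), and, with 1 library left out, Nid2 (-0.1213 to 0.0565) and Efemp1 (-0.0075 to 0.2027) between the CCl4 groups and Lama4 in Cirrhosis-PTH against Control (-0.0922 to 0.1181). Pair ratios changed sign in Mfap2/Mfap4 (-0.25 with the block in Cirrhosis, and -1.3583 to 0.034 with 1 library left out in Cirrhosis-PTH against Control), the Efemp2/Efemp1 log2 ratio in Cirrhosis-PTH vs Control (-0.0829 to 0.0522 with 1 library left out), Thbs2/Thbs1 there (-0.0739 with the block, -0.1498 to 0.2035 with 1 library left out) and Lama2/Lama5 between the CCl4 groups (-0.02 to 0.1498 with 1 library left out), none of which had passed. With the block, ratios were tested by exact sign flips over the shared numbers, 4 against Control and 6 between the CCl4 groups. So few numbers cannot give a ratio that passes after adjustment over 54 tests. That none passed (lowest exact sign-flip adjusted p = 0.178 and 0.153) therefore says nothing about the ratios. The share of counts at Gm42418 alone differed by -0.30 percentage points in Cirrhosis and -0.16 between the CCl4 groups, neither passing (exact permutation adjusted p = 0.82 for both), in place of -9.26 (exact permutation adjusted p = 0.019) and 2.42 (exact permutation adjusted p = 0.43) for all 7 loci. The cause was not tested. Low counts limit Mfap2, Fbn2 and Vcan in Control.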

Other observations

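Within Cirrhosis, replicate 3 was at opposite ends for different matrix genes. It was the highest Cirrhosis liver for 15 of 38 genes, among them Eln (21.1 CPM), Sparc (146 CPM), Postn (26.0 CPM) and Lama2 (25.5 CPM). It was the lowest for 9, among them Tnc (25.6 CPM), Thbs1 (29.8 CPM), Vcan (4.01 CPM), Nid1 (71.98 CPM) and Emilin1 (42.5 CPM). The same liver was lowest in Cirrhosis for Wisp1 (4.63 CPM), Cd44 (37.2 CPM) and Itgav (55.6 CPM) and highest for the summed hepatocyte markers (58325 CPM). These genes were picked after their values were seen, and no test was made.

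Small leucine-rich proteoglycan genes lie in clusters. On chromosome 10, Kera and Epyc next to Dcn and Lum had a mean of 0 CPM in all 3 groups. On chromosome 1, Prelp had means of 29.9, 47.8 and 39.4 CPM in Control, Cirrhosis and Cirrhosis-PTH, and Fmod beside it 1.56, 4.52 and 3.46 CPM. On chromosome 13, Ecm2, Aspn, Omd and Ogn had means of 0.112 to 1.78 CPM in all groups.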
